A study of Sus scrofa with 40 samples.

Results

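SCD, ELOVL6, FADS1 and FADS2 encode the enzymes that desaturate newly made and dietary fatty acids and lengthen palmitate, and their transcripts were followed in backfat and liver of feed-restricted pigs. The genes were taken as every probe set whose single gene symbol in the platform annotation is one of these 4 names. This gave 8 of the 23999 probe sets that are not controls, and 4 of the 6765 genes with a probe set of their own. ELOVL6 has 4 probe sets, FADS2 has 2, and SCD and FADS1 have 1 each. Below, the brightest ELOVL6 probe set is ELOVL6-a and the 3 dimmer ones are ELOVL6-b, ELOVL6-c and ELOVL6-d in the order of their identifiers, and the brighter FADS2 probe set is FADS2-a and the dimmer one FADS2-b.

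The samples came from Yorkshire gilts, 6 months old and not yet pubertal, of lines with low or high residual feed intake (RFI), the feed an animal eats beyond what its growth and maintenance predict. Low RFI animals are therefore the feed-efficient ones. In each line 5 pigs were restricted to 80% of their maintenance feed for 8 days and 5 ate ad libitum, which gave, in backfat from the middle layer over the tenth rib and in liver, the groups low RFI restricted, high RFI restricted, low RFI ad libitum and high RFI ad libitum. Total RNA of each sample was hybridised to a 1-colour Affymetrix porcine array, with 5 arrays in each of the 8 groups and 40 in all. Pigs of every group, ad libitum groups included, were heterozygous at MC4R, a melanocortin receptor gene, per the labels, except that the label of 1 liver array says only that the genotypes were specific ones. The labels do not say which liver and backfat arrays share a pig.

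Fatty acid synthase releases mainly palmitate, a saturated acid. ELOVL6 lengthens palmitate to stearate, and SCD, the stearoyl-CoA desaturase, puts the double bond into stearate and palmitate that yields oleate and palmitoleate, the main monounsaturated acids of stored fat. FADS2 and FADS1, the delta-6 and delta-5 desaturases, act in turn on the essential linoleic and alpha-linolenic acids on the way to arachidonic acid and the long omega-3 acids. In pigs adipose tissue is the main site of fatty acid synthesis, while liver is a main site of highly unsaturated fatty acid synthesis in mammals.

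The deposited values are linear intensities that had been scaled to a like mean on every array, with array medians of 127 to 191. In backfat the log2 median was 7.5 ± 0.0613 on restricted and 7.39 ± 0.0652 on ad libitum arrays (SD, n = 10 each, exact permutation p = 0.00224, adjusted p = 0.0397 over 18 tests). Each tissue was bright for its own defining marker and dim for that of the other, with 1 exception. ADIPOQ, made by adipocytes, gave 18510 to 32520 in backfat and 13.81 to 76.88 in liver, and ALB, serum albumin of hepatocytes, had a median of 145.7 in backfat and 37420 in liver. Backfat low RFI restricted replicate 5 stood apart with an ALB intensity of 24620, and its mean log2 over the 11 hepatocyte markers on the array was 12.49, against 4.88 to 8.69 on the other backfat arrays. The 8 skeletal muscle markers averaged 4.57 to 12.98 on the log2 scale among backfat arrays, but did not differ detectably with diet (difference 0.49, exact permutation p = 0.714, adjusted p = 0.76). The log2 ratio of 3′ to 5′ GAPDH control probe sets, a measure of RNA integrity and labelling, was 1.88 ± 0.521 in restricted and 1.19 ± 0.365 in ad libitum backfat (SD, n = 10 each, exact permutation p = 0.00441, adjusted p = 0.0397 over 18 tests). Arrays numbered 1 and 2 differed from those numbered 3 to 5 in the same ratio for actin (means 2.27 and 1.56 in backfat, 2.25 and 1.32 in liver). No label names a batch. Diet effects of the 4 genes within each of these sets are given beside the pooled ones over both lines.

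The 4 genes were distributed unequally over the tissues. SCD and ELOVL6 were bright in both, whereas FADS1 and FADS2 were bright in liver and dim in backfat. To enter the tests of a tissue, a probe set had to be brighter than the 40th percentile of the array in 5 or more of the 20 arrays. By this rule 5 of the 8 probe sets were tested in backfat (SCD and all 4 of ELOVL6) and 7 in liver. FADS1 exceeded that level on 3 of 20 backfat arrays, and FADS2-a on none (0). FADS2-b never exceeded it in either tissue and gave 2.03 to 47.2 in backfat and 5.06 to 73.9 in liver.

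The same probe set can be set against itself across tissues. The brightest ELOVL6 probe set, ELOVL6-a, averaged 14.19 ± 0.548 log2 units in backfat and 11.9 ± 1.07 in liver (SD over all 20 arrays of a tissue), a difference of 2.30 (SE 0.175, limma adjusted p = 9.00e-15). The other ELOVL6 probe sets differed in the same direction, by 3.28 to 3.99 log2 units. SCD was higher in backfat by 0.67 log2 units (SE 0.26, limma adjusted p = 0.0177), at 13.73 ± 1.21 in backfat and 13.06 ± 0.895 in liver. All 5 of these probe sets were called higher in backfat, as were 50.5% of the probe sets tested in either tissue, of which 80.4% differed in one direction or the other.

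FADS1 gave a median of 76.6 in backfat (24.1 to 147), and 19 of 20 liver arrays lay above the highest of these. The filter level of the backfat arrays lay between 91.5 and 119. With it standing in for dimmer backfat values, FADS1 was at least 10.6-fold and FADS2-a at least 3.41-fold higher in liver (limma adjusted p = 1.87e-15 and 2.44e-12 on the measured values). Both were called lower in backfat, as were 29.9% of probe sets. In bulk tissue, fewer cells of a type and less RNA per cell cannot be told apart.

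**Figure D1:**
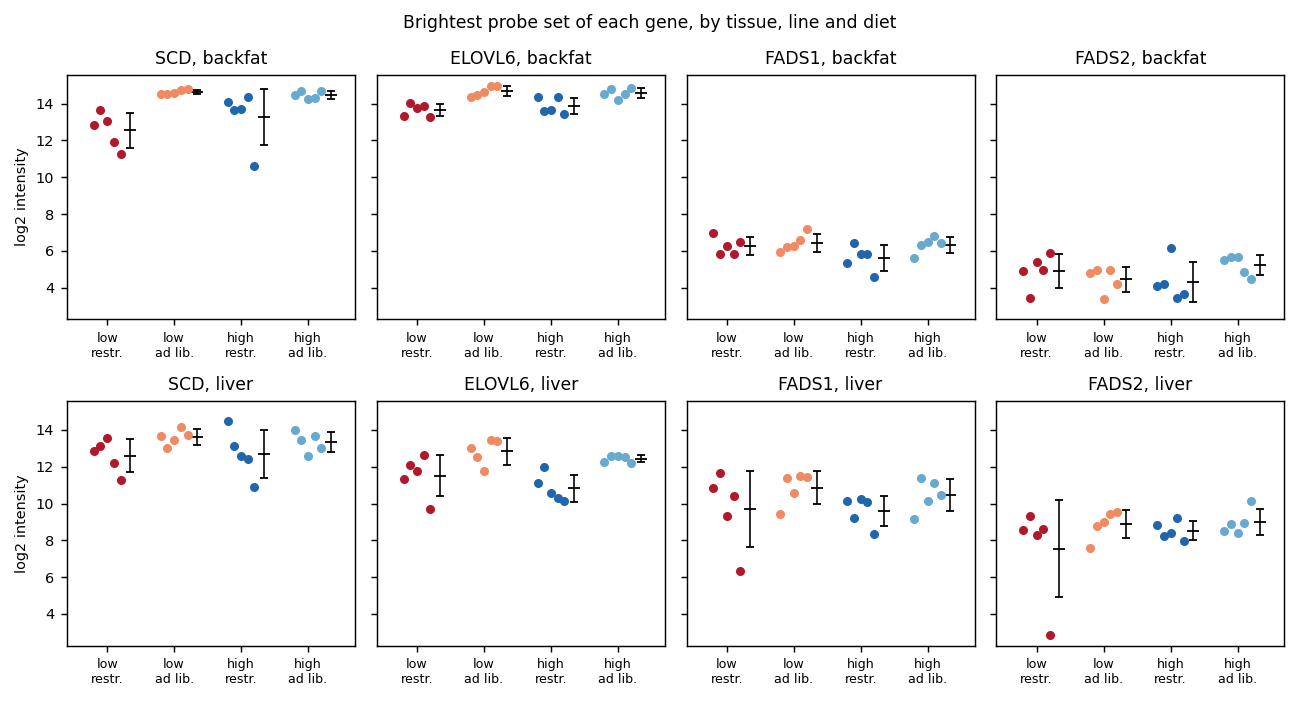
Log2 intensity of the brightest probe set of each gene (vertical axis) in the restricted and ad libitum groups of both lines, with backfat above and liver below. Points are the 5 arrays of a group, and the bar to their right is the mean with its SD. SCD and ELOVL6 sit lower in restricted than in ad libitum backfat, FADS1 and FADS2 are dim in backfat, and liver low RFI restricted replicate 5 lies far below its group for FADS1 (82.2 on the linear scale) and FADS2 (7.37).

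Ordered by mean log2 level, SCD was highest in the ad libitum backfat groups (14.63 in low and 14.47 in high RFI pigs), whose ranges overlapped. The next group, low RFI ad libitum liver, did not reach them, with a highest array of 18247 against a lowest of 19173 in high RFI ad libitum backfat. From there down, each group overlapped the next, and SCD ended lowest in low RFI restricted backfat at 12.56. The backfat group means of SCD thus lay on both sides of all 4 liver means.

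The brightest ELOVL6 probe set had another order, with all 4 backfat groups (13.66 to 14.68) above all 4 liver groups (10.82 to 12.83). Neighbours in that order overlapped in their ranges throughout. FADS1 and FADS2 ordered by tissue too. The lowest liver group of FADS1, high RFI restricted with 326 to 1234, lay wholly above the highest backfat group, low RFI ad libitum with 61.8 to 147. Another liver group of FADS1, low RFI restricted, reached into the backfat range through its replicate 5 (82.2). For FADS2 the lowest liver group, low RFI restricted as well, overlapped the backfat groups through its replicate 5.

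The comparison of restricted with ad libitum pigs asks how acute caloric restriction alters expression, and in backfat both genes of monounsaturated fat synthesis were lower after restriction. All 5 tested probe sets fell, while 25.8% of the 15498 probe sets tested changed and 10.7% fell. The median change over all probe sets tested was 0.08 log2 units.

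SCD, which makes oleate, gave intensities of 7433, 13072, 8580, 3862 and 2495 in low RFI restricted and 17490, 12669, 13310, 20846 and 1550 in high RFI restricted pigs. In ad libitum backfat it gave 23494, 23416, 24662, 27670 and 27969 in low RFI and 22851, 25901, 19173, 20298 and 26448 in high RFI pigs. Of the 10 restricted arrays 9 lay below every ad libitum array, and the exception was high RFI restricted replicate 4. The restricted groups were also more spread, with SDs of 0.953 and 1.52 log2 units in low and high RFI pigs, against 0.125 and 0.206 in the ad libitum groups.

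SCD changed by -1.63 log2 units with restriction (SE 0.358, n = 10 per diet, limma adjusted p = 0.00227), a 3.11-fold lower level. The change was -0.98 within arrays numbered 1 and 2 and -2.07 within those numbered 3 to 5, with adjusted p of 0.0389 and 0.0164. It was -1.48 without the array that carried hepatocyte markers and -1.49 when the control ratios of GAPDH and actin were covariates (limma adjusted p = 0.00479 and 0.0399).

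ELOVL6, which makes stearate for SCD, fell at all 4 of its probe sets. Its brightest, ELOVL6-a, gave 10353, 16588, 14050, 15096 and 9806 in low RFI restricted and 20646, 12271, 12999, 20749 and 10896 in high RFI restricted backfat. The ad libitum values were 21168, 23015, 25336, 32137 and 31726 in low RFI and 23160, 28658, 18682, 23174 and 29712 in high RFI pigs. Restricted replicates 1 and 4 of the high RFI line exceeded the lowest ad libitum array, and the other 8 restricted arrays did not. The change was -0.87 log2 units (SE 0.138, limma adjusted p = 0.000147), 1.82-fold lower. Within arrays numbered 1 and 2 it was -0.72 and no longer passed (adjusted p = 0.11), and within those numbered 3 to 5 it was -0.96 (adjusted p = 0.00398).

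The other ELOVL6 probe sets moved further. ELOVL6-c gave 1087, 2252, 2653, 1786 and 1480 in low RFI restricted and 2312, 3646, 2952, 4473 and 964 in high RFI restricted backfat. In ad libitum backfat it gave 7223, 10996, 9574, 14434 and 10831 in low RFI and 10728, 11712, 4566, 13318 and 13474 in high RFI pigs. Every restricted array lay below every ad libitum array, which held for 1.01% of probe sets tested. This probe set changed by -2.27 log2 units (SE 0.249, limma adjusted p = 3.87e-06), ELOVL6-b by -2.25 (SE 0.25, adjusted p = 4.27e-06) and ELOVL6-d by -2.09 (SE 0.217, adjusted p = 2.41e-06), which are 4.25-fold to 4.81-fold lower levels. Within arrays numbered 1 and 2 they changed by -2.23, -2.17 and -2.03, and within those numbered 3 to 5 by -2.29, -2.31 and -2.12, and all passed.

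The probe sets of ELOVL6 therefore disagreed on the size of the fall. The interval for the brightest one was -1.15 to -0.58, while those of the other 3 together ran from -2.78 to -1.64. The brightest one sat near the top of its arrays, at a mean percentile of 99.9 in both ad libitum groups, as did SCD, and whether either signal was compressed there was not tested. The profiles of the other 3 over the 20 arrays differed from each other by 0.148 to 0.288 log2 units (root mean square after centring) and from that of the brightest by 0.724 to 0.833. Without the array that carried hepatocyte markers the 4 changes were -0.82 for the brightest and -2.20, -2.23 and -1.97 for the others, and all 4 passed. When the control ratios of GAPDH and actin were covariates they were -0.83 for the brightest (limma adjusted p = 0.00741) and -1.98, -2.10 and -1.82 for the others, and all 4 passed.

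**Figure D2:**
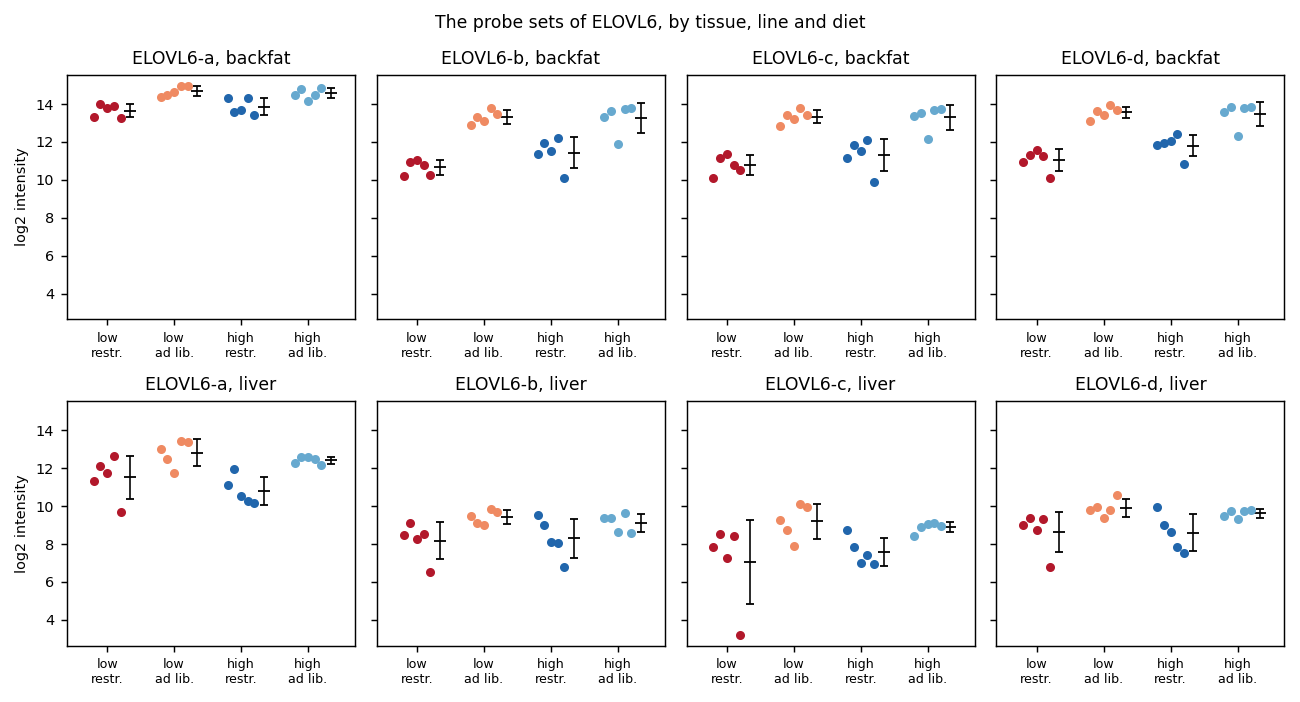
Log2 intensity (vertical axis) of the 4 ELOVL6 probe sets in the restricted and ad libitum groups of each line, with backfat above and liver below. Points are single arrays, and the bar beside them is the mean with its SD (n = 5). In backfat the 3 dimmer probe sets separate the diets more widely than the brightest one, and high RFI ad libitum replicate 3 is the lowest ad libitum array at each of them.

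Within the lines, all 5 tested probe sets fell in low RFI backfat, where 9.2% of probe sets changed and 4.83% fell. SCD changed by -2.07 log2 units there (SE 0.507, limma adjusted p = 0.0138) and the brightest ELOVL6 probe set by -1.03 (SE 0.196, adjusted p = 0.00256). The SCD call in this line was lost when the control ratios of GAPDH and actin were covariates (-2.02, adjusted p = 0.0543), within arrays numbered 1 and 2 (-1.25, adjusted p = 0.164) and within those numbered 3 to 5 (-2.62, adjusted p = 0.0531). That of the brightest ELOVL6 probe set was lost within arrays numbered 1 and 2 (-0.75, adjusted p = 0.392) and with all 40 arrays in 1 fit (-1.03, adjusted p = 0.0602). In high RFI backfat the 4 ELOVL6 probe sets fell, against 4.55% of probe sets that fell and 9.02% that changed. The brightest changed by -0.70 (SE 0.196, limma adjusted p = 0.0281), and its call was lost when any of 7 high RFI arrays (restricted replicates 2, 3 and 5, ad libitum replicates 1, 2, 4 and 5) was left out, with values of -0.72 to -0.59. It was also lost with the control ratios as covariates (-0.64, adjusted p = 0.127), with all 40 arrays in 1 fit (-0.70, adjusted p = 0.24) and within arrays numbered 1 and 2 (-0.69) or 3 to 5 (-0.71). Within numbers 1 and 2, ELOVL6-d alone of the 5 probe sets passed in either line, and within numbers 3 to 5 the 4 ELOVL6 probe sets passed in low RFI and 0 of 5 in high RFI pigs. SCD changed by -1.20 (SE 0.507, adjusted p = 0.143), and by -0.53 without restricted replicate 5 (adjusted p = 0.352). A difference between the lines in this response is tested below as the interaction.

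FADS1 and FADS2 exceeded the filter level on too few backfat arrays to be tested there. FADS1 gave 24.1 to 125 (median 57.3) in restricted and 49.1 to 147 (median 82.2) in ad libitum backfat, and the ranges overlapped. The array that carried hepatocyte markers gave 89.9 for FADS1 and 58.7 for FADS2-a. With no filter, the FADS1 change was -0.44 log2 units (SE 0.241, limma adjusted p = 0.246). FADS2-a changed by -0.24 (SE 0.369, adjusted p = 0.739).

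In liver ELOVL6 was lower after restriction at its brightest probe set, and the other tested probe sets of the 4 genes had negative changes that did not pass. Only 0.919% of the 15677 probe sets tested in liver changed with diet, 0.542% fell and 0.376% rose, against 1 of the 7 tested here.

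The brightest ELOVL6 probe set gave 2598, 4433, 3490, 6391 and 839 in low RFI restricted and 2221, 4018, 1500, 1260 and 1130 in high RFI restricted liver. It gave 8318, 5813, 3452, 11275 and 10784 in low RFI ad libitum and 4896, 6217, 6104, 5803 and 4629 in high RFI ad libitum liver. Of the restricted arrays 6 of 10 lay below every ad libitum array, and all 5 in the high RFI line lay below the 5 ad libitum arrays of their own line. The change was -1.46 log2 units (SE 0.301, n = 10 per diet, limma adjusted p = 0.0227), or 2.75-fold lower. It was -1.37 and just missed the threshold (adjusted p = 0.0512) without high RFI restricted replicate 5. Within arrays numbered 1 and 2 it was -0.96 and within those numbered 3 to 5 it was -1.79, and neither passed alone (adjusted p = 0.257 and 0.135). Of all 15677 probe sets 0 passed for diet in the first of these sets and 44 in the second.

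The 3 dimmer ELOVL6 probe sets changed by -1.04, -1.72 and -1.14 log2 units in liver (limma adjusted p = 0.118 for ELOVL6-b, 0.106 for ELOVL6-c and 0.082 for ELOVL6-d). All 3 intervals of the unadjusted estimates lay below 0. Within arrays numbered 1 and 2 they changed by -0.32, -0.59 and -0.41, and within those numbered 3 to 5 by -1.51, -2.47 and -1.62.

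SCD in liver gave 7381, 9020, 12141, 4650 and 2512 in low RFI restricted and 22513, 8765, 6136, 5478 and 1918 in high RFI restricted pigs. The ad libitum values were 12767, 8201, 11264, 18247 and 13707 in low RFI and 16370, 10988, 6169, 13227 and 8208 in high RFI pigs. The brightest of all 20 arrays was a restricted one, high RFI replicate 1, and the ranges overlapped. The change of -0.82 log2 units (SE 0.334, interval -1.52 to -0.13) did not pass (limma adjusted p = 0.292). It was -0.13 within arrays numbered 1 and 2 and -1.28 within those numbered 3 to 5.

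FADS1, the delta-5 desaturase, gave 1811, 3173, 646, 1364 and 82.2 in low RFI restricted and 1122, 585, 1234, 1079 and 326 in high RFI restricted liver. In ad libitum liver it gave 677, 2704, 1508, 2895 and 2821 in low RFI and 565, 2650, 1126, 2219 and 1431 in high RFI pigs. The groups overlapped, and the highest value of all belonged to a restricted pig, low RFI replicate 2. The change was -1.0 log2 units (SE 0.496, interval -2.03 to 0.03, limma adjusted p = 0.423). It was -0.58 without low RFI restricted replicate 5.

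FADS2, the delta-6 desaturase, gave 382, 635, 317, 394 and 7.37 in low RFI restricted and 464, 299, 340, 589 and 245 in high RFI restricted liver. In ad libitum liver it gave 195, 443, 518, 683 and 731 in low RFI and 367, 475, 335, 498 and 1132 in high RFI pigs. The same restricted array, low RFI replicate 5, was lowest for both genes, and apart from it the groups overlapped broadly. The change was -0.89 (SE 0.56, interval -2.06 to 0.27, limma adjusted p = 0.555), and -0.31 without that array. The 2 sets of arrays differed in sign for both genes. Within numbers 1 and 2 FADS1 changed by 0.11 and FADS2 by 0.29, while within numbers 3 to 5 they changed by -1.74 and -1.68.

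No member probe set passed for diet within 1 line in liver. In low RFI liver 0 of 7 passed limma's adjusted threshold and 5 had an unadjusted p under 0.05, with 0.134% of all probe sets called. In high RFI liver 0 of 7 passed and 2 had an unadjusted p under 0.05, with 0.0255% called. The brightest ELOVL6 probe set changed by -1.31 in low RFI (SE 0.425, adjusted p = 0.261) and by -1.61 in high RFI liver (SE 0.425, adjusted p = 0.427).

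**Figure D3:**
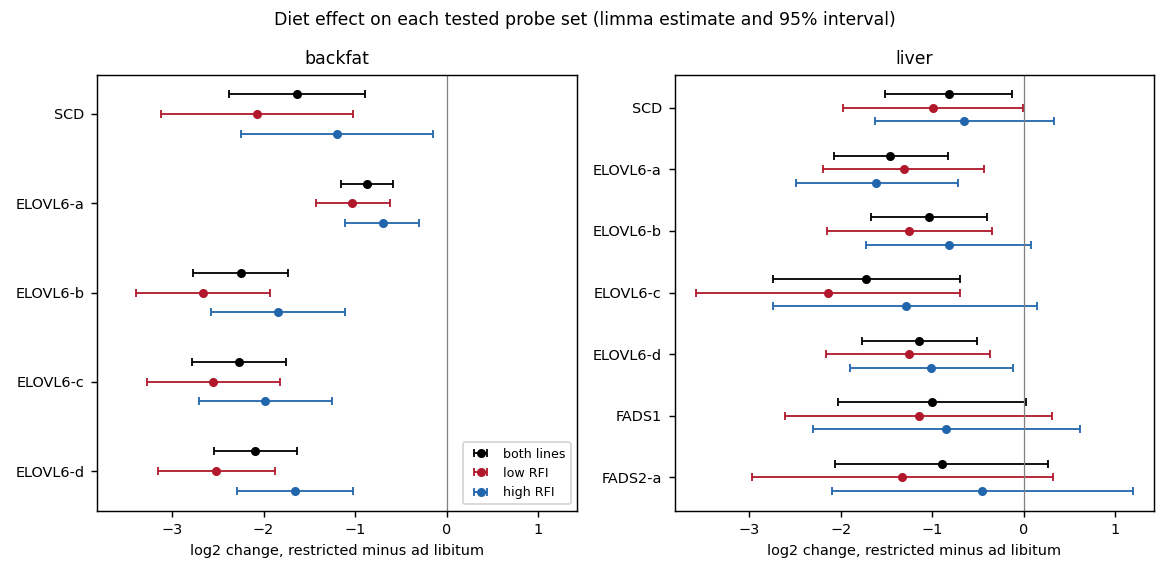
Change with restriction (horizontal axis, log2 units, restricted minus ad libitum) of each tested probe set in backfat and liver. Points are limma estimates over both lines, in low RFI and in high RFI pigs, with bars for the 95% interval. Backfat intervals over both lines lie below 0 for all 5 probe sets, from -0.87 for the brightest ELOVL6 probe set to -2.27 for ELOVL6-c, and the liver intervals of FADS1 and FADS2 include 0.

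The lines were compared to ask whether pigs that differ in feed efficiency differ in expression. No member probe set passed for a difference between low and high RFI pigs, which does not show that the lines were alike. In backfat 0 of 5 passed limma's adjusted threshold (0 at an unadjusted p under 0.05), with 0.0194% of all probe sets called. In liver 0 of 7 passed (0 unadjusted), with 0.0447% called. SCD differed by -0.28 log2 units in backfat (low minus high RFI, interval -1.02 to 0.47, adjusted p = 0.923, with -0.61 to -0.12 when 1 array was left out) and by 0.09 in liver (interval -0.61 to 0.78, adjusted p = 0.987). The brightest ELOVL6 probe set differed by -0.05 in backfat (interval -0.34 to 0.24) and by 0.55 in liver (interval -0.07 to 1.18, adjusted p = 0.819). FADS1 in liver differed by 0.26 (interval -0.77 to 1.29) and FADS2 by -0.55 (interval -1.71 to 0.61).

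Under restriction alone 0 of 5 passed in backfat, with 0% of all probe sets called, and 2 had an unadjusted p under 0.05. ELOVL6-b differed by -0.77 (limma adjusted p = 0.998) and ELOVL6-d by -0.76 (adjusted p = 0.998). In ad libitum backfat the same probe sets differed by 0.05 and 0.10, and 0 of 5 passed (0 unadjusted), with 0.0129% called. In liver 0 of 7 passed under restriction (0 unadjusted, 0.0191% called) or ad libitum (0 unadjusted, 0% called). The interaction subtracts the change with diet in high RFI pigs from that in low RFI pigs, and by limma it passed for 0 of 5 member probe sets in backfat and 0 of 7 in liver (0 unadjusted in either), with 0% of all probe sets called. It was -0.87 for SCD in backfat (interval -2.36 to 0.62, limma adjusted p = 1; -1.54 without high RFI restricted replicate 5 and -0.55 without low RFI restricted replicate 5) and lay between -0.86 and -0.32 for the ELOVL6 probe sets there. Such intervals do not show that the lines responded alike.

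Whether diet acted unequally on the tissues was tested as a difference of changes, backfat minus liver. Its sign differed between ELOVL6 probe sets, and it passed for none of SCD and ELOVL6. At the brightest probe set the change was -0.87 in backfat and -1.46 in liver, a difference of 0.59 (SE 0.349, interval -0.11 to 1.30, limma adjusted p = 0.314). At ELOVL6-b the changes were -2.25 in backfat and -1.04 in liver, a difference of -1.22 (SE 0.415, limma adjusted p = 0.0519). This one passed under 5 of 8 alternatives, among them quantile normalization (-1.40, adjusted p = 0.0212), a stricter filter (-1.22, adjusted p = 0.0387) and the offset (-1.29, adjusted p = 0.0234). It passed within arrays numbered 1 and 2 (-1.85, adjusted p = 0.0109) and not within those numbered 3 to 5 (-0.80, adjusted p = 0.456). It also passed without any 1 of 9 of the 40 arrays (backfat low RFI restricted replicate 3, high RFI restricted 2 and 4, low RFI ad libitum 1 and high RFI ad libitum 3, and liver low RFI restricted 5, high RFI restricted 5, low RFI ad libitum 4 and high RFI ad libitum 4), with adjusted p of 0.0124 to 0.0913 over all 40. At ELOVL6-d the difference was -0.95 (adjusted p = 0.118), and it passed within arrays numbered 1 and 2 (-1.62, adjusted p = 0.0154), without backfat high RFI ad libitum replicate 3 (-1.09, adjusted p = 0.0493) and without liver low RFI restricted replicate 5 (-1.18, adjusted p = 0.0186). For SCD they were -1.63 in backfat and -0.82 in liver, a difference of -0.81 (SE 0.517, interval -1.86 to 0.23, adjusted p = 0.359). Of the 5 probe sets tested in both tissues 0 passed (2 at an unadjusted p under 0.05), against 10.9% of all probe sets tested, 6.36% with a lower value in backfat.

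The ratio of 2 genes on the same array does not depend on the array's scaling. In backfat the log2 ratio of ELOVL6 to SCD averaged 0.84 in restricted pigs (-0.05 to 2.81) and 0.07 in ad libitum pigs (-0.15 to 0.22). The change of 0.77 (SE 0.335) had an exact permutation p of 0.00986 and an adjusted p of 0.069 over 7 ratios. It was 0.49 without high RFI restricted replicate 5, the array with the lowest SCD value in backfat. With 1 array left out, the adjusted p of the exact permutation test ran from 0.022 to 0.227. The change also rests on the brightest ELOVL6 probe set, and with the mean over all 4 it was -0.23. In liver the change of this ratio was -0.64 (SE 0.355, adjusted p = 0.304, exact permutation test). The 5 other liver ratios changed by -0.57 to 0.18, among them FADS1 over FADS2 by -0.11 (SE 0.327), with adjusted p of at least 0.572.

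The genes whose values over the 20 arrays of a tissue most resembled each member were found by the root mean square difference of centred log2 values, over 5549 genes in backfat and 5718 in liver. This describes likeness across these arrays, which share diet, line and processing. In backfat the closest to ELOVL6 was VDAC1, a mitochondrial outer membrane channel, at 0.19, followed by the ATP synthase subunit genes ATP5B (0.217) and ATP5F1 (0.218). The closest to SCD in backfat were CEACAM16 (0.571), PSPH, a serine synthesis phosphatase (0.672), and MPC2, a subunit of the mitochondrial pyruvate carrier (0.703). SCD was in place 4646 for ELOVL6, and ELOVL6 in place 20 for SCD, whose own spread was wider (1.18 against 0.534). These places rest on the brightest ELOVL6 probe set. With ELOVL6-b, ELOVL6-c or ELOVL6-d in its stead, a choice made after seeing the data, SCD was in place 24, 23 or 24, and the closest genes were ME1, a malic enzyme (0.328 for ELOVL6-b and 0.32 for ELOVL6-c), and ACSS2, an acetyl-CoA synthetase (0.39 for ELOVL6-d).

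In liver FADS1 and FADS2 were each in the other's place 2 of 5718, at 0.784, with low RFI restricted replicate 5, the lowest array of both, included. Without it, a choice made after seeing the data, FADS2 was in place 1 for FADS1, but FADS1 was in place 3683 for FADS2, at 0.684, and the closest to FADS2 was RENBP (0.398). The pair itself differed less without that array (0.684 against 0.784), but the spread of FADS2 fell from 1.4 to 0.581. A gene that did not vary would then lie 0.581 from FADS2, nearer than FADS1. The place as seen from FADS2 thus depends on 1 array and on the spread of FADS2, and does not show that the pair became less alike. They are neighbours in the Sscrofa11.1 annotation of RefSeq, with 0 annotated genes lying wholly between them. Over all 20 arrays the closest to FADS1 was DHRS7, a dehydrogenase/reductase (0.738), and after FADS2 came GULO (0.822), which in pigs makes vitamin C. The closest to FADS2 was CYP2B22, a cytochrome P450 (0.635), with LRRC43 after FADS1 at 0.793. SCD in liver was closest to GLUL, glutamine synthetase (0.521), KCNJ5, a potassium channel (0.567), and FABP3, a fatty acid binding protein (0.575). ELOVL6 was closest to COQ6, of coenzyme Q synthesis (0.609), PTER (0.642) and NT5C3A, a nucleotidase (0.697).

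In backfat most tested genes of a list of fatty acid synthase and substrate supply were lower after restriction. The smallest fall counted, named after its value was seen, was OXSM at -0.33 (limma adjusted p = 0.0214). Of 9 tested genes of fatty acid synthase and substrate supply 8 fell and 0 rose with restriction, while 10.7% of all probe sets tested fell, with a list median of -1.92 log2 units against 0.08 over all probe sets tested. FASN, the synthase itself, changed by -2.76 (SE 0.267, limma adjusted p = 9.13e-07), ME1, a malic enzyme giving NADPH, by -2.65 (SE 0.215) and SLC25A1, the mitochondrial citrate carrier, by -2.27 (SE 0.202). ACACA, which makes malonyl-CoA for both FASN and ELOVL6, changed by -1.92 (SE 0.292). Its mean intensity was 401.4 in ad libitum and 104.9 in restricted backfat, the latter within the filter level of 91.5 to 119. Within arrays numbered 1 and 2 the count was 5, where 469 of all 15498 probe sets passed in either direction, against 3999 in the main fit.

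In liver 3 of 8 such genes fell, while 0.542% of all probe sets tested fell, with a list median of -0.19 against 0.02 over all probe sets tested. ACSS2, an acetyl-CoA synthetase, changed by -1.41 (SE 0.23, limma adjusted p = 0.00466) and FASN by -1.25 (SE 0.28, adjusted p = 0.0343). ME1, named after its value was seen, changed by -0.91 (SE 0.214, adjusted p = 0.0422). The count was 1 when any of 10 liver arrays was left out (low RFI restricted replicate 1, high RFI restricted 2, 4 and 5, low RFI ad libitum 3, 4 and 5, high RFI ad libitum 1, 4 and 5), and 0 within arrays numbered 1 and 2. Within arrays numbered 1 and 2 no probe set in liver passed for diet (0 of 15677), so that 0 would hold for any list. ACACA did not pass the signal filter in liver.

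The partners of the 4 enzymes supply electrons to the desaturases, complete the elongation cycle or activate fatty acids to acyl-CoA. In backfat 5 of 9 fell and 3 rose, while 10.7% of all probe sets tested fell and 15.1% rose, with a list median of -0.29. HSD17B12, the ketoacyl-CoA reductase of the elongation cycle, changed by -1.35 (SE 0.118, limma adjusted p = 4.15e-07) and CYB5B, a cytochrome b5, by -1.16 (SE 0.181, adjusted p = 0.00012). The remaining calls are named after their values were seen. HACD3, ACSL1 and CYB5R1 fell by 0.29, 0.55 and 0.61, and the acyl-CoA synthetase genes ACSL3, ACSL4 and ACSL5 rose by 0.60, 0.41 and 0.51 log2 units. Within arrays numbered 1 and 2 the counts were 2 lower and 1 higher, and 469 of all 15498 probe sets passed. When the control ratios of GAPDH and actin were covariates 3 were lower, and 1840 probe sets passed, against 3999 in the main fit. In liver 0 of 9 passed limma's adjusted threshold (3 at an unadjusted p under 0.05), and CYB5R1, a cytochrome b5 reductase, had the lowest p, with -0.30 (SE 0.128, adjusted p = 0.313).

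Among other desaturases and elongases 3 genes were tested in each tissue. SCD5, a second stearoyl-CoA desaturase, rose in backfat by 0.98 log2 units (SE 0.235, limma adjusted p = 0.00439), opposite to SCD, and was the 1 call of the list there, where 25.8% of all probe sets changed. In liver 0 of 3 passed (0 unadjusted), with DEGS1, the dihydroceramide desaturase, at -0.17 (SE 0.107).

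Of 11 tested regulators of lipogenic genes, 0 passed limma's adjusted threshold in backfat (3 at an unadjusted p under 0.05) and 0 in liver (1 unadjusted), while 25.8% of all probe sets passed in backfat and 0.919% in liver. SREBF1, the gene of a transcription factor that activates lipogenic genes, changed by -0.07 in backfat (SE 0.266, adjusted p = 0.883) and by 0.29 in liver (SE 0.198, adjusted p = 0.608). Its signal was low, with backfat mean intensities of 148 in restricted and 149.7 in ad libitum pigs, near the array medians. PPARG, the adipocyte nuclear receptor, changed by -0.34 in backfat (SE 0.133, adjusted p = 0.0682), and INSIG1, which holds back SREBP processing, by -0.42 in liver (SE 0.2, adjusted p = 0.40).

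Among 8 tested users of fatty acids, 2 fell in backfat and 1 in liver, and 0 rose. Of all probe sets tested 25.8% changed in backfat in either direction, and 2 of 8 is near that share. Those that fell were 10.7% in backfat and 0.542% in liver, and whether 2 of 8 differs from 10.7% was not tested. The list also holds FADS6, a gene of the desaturase family that was tested in liver and did not pass. DGAT2 and DGAT1, which make triacylglycerol, changed in backfat by -0.97 (SE 0.144) and -0.82 (SE 0.149), with limma adjusted p of 7.60e-05 and 0.000509. LPIN1, a phosphatidate phosphatase, changed in liver by -1.50 (SE 0.289, adjusted p = 0.0171). The list medians were -0.27 in backfat and -0.26 in liver.

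**Figure D4:**
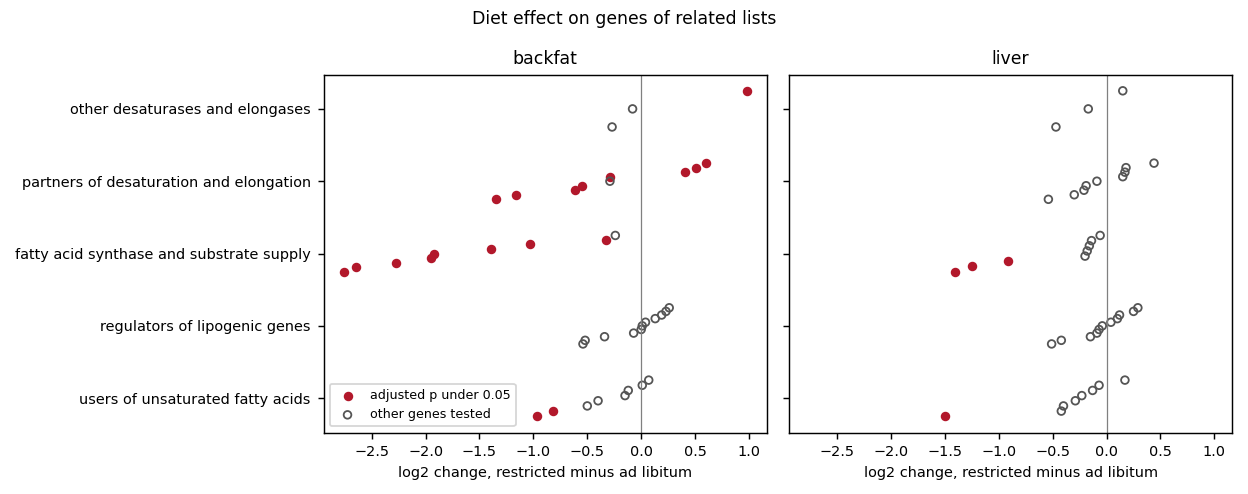
Change with restriction (horizontal axis, log2 units, restricted minus ad libitum) of each tested gene of 5 related lists in backfat and liver, 1 point a gene. Filled points have a limma adjusted p under 0.05, and open points do not. The supply list lies left of 0 in backfat with FASN lowest at -2.76, and the regulators cluster around 0 in both tissues, with no filled point.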

How the data were processed

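Backfat and liver RNA was measured on 40 Affymetrix porcine arrays. The authors deposited 1 linear intensity for each probe set and array. Per the submitters' processing notes affy and MAS5 were used, with no role or version given. The mean of each array after trimming 2% at each end was 500.09 to 500.15, so the deposited intensities were not rescaled. Of 24123 probe sets 124 controls were left out, and symbols came from the platform annotation (10069 probe sets with 1 symbol, 198 with several, 13732 with none).

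Intensities were log2-transformed without an offset. A group-means model was fitted per tissue with limma 3.58.1 in R 4.3.3 (eBayes with an intensity trend), with Benjamini-Hochberg adjustment over all probe sets that passed the filter and a threshold of 0.05. Tissues were compared on all 40 arrays. Gene ratios, array measures and marker lists were compared by exact two-sided permutation of diet labels within line (63504 arrangements) in Python 3.11.15 with numpy 2.4.6, scipy 1.17.1 and pandas 2.3.3, and plots used matplotlib 3.10.9. For a gene with several probe sets, the one brightest on average in the tissue stands for it in lists, ratios and profiles. Of each list the 2 genes with the smallest p past the threshold were named, or 1 where none passed, with FASN, ACACA and SREBF1 always. The 4 genes, the lists and the tests were chosen with earlier results of these data known. Alternatives covered quantile normalization, filters, an offset, no trend, the replicate number as a block, sets of arrays, covariates and each array left out. Between tissues the block was line, diet and number together. The number of arrays limits precision, since arrays give no counts.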

Additional observations from a re-analysis of the deposited data

Results flagged for a closer look

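Among 64 groups of 5 arrays (each tested probe set and the hepatocyte and skeletal muscle marker means), 8 had an array far from the other 4 by Dixon's test, and chance gives about 1 in 20. All are on the log2 scale. In backfat, the hepatocyte marker mean of low RFI restricted replicate 5 was 12.49, against 5.77 to 7.01 on the other arrays of the group. SCD in high RFI restricted replicate 5 was 10.6, against 13.63 to 14.35, and without that array the SCD change over both lines was -1.30 (limma adjusted p = 0.00033). High RFI ad libitum replicate 3 was the lowest of its group for the 3 dimmer ELOVL6 probe sets, with 11.88 at ELOVL6-b, 12.16 at ELOVL6-c and 12.32 at ELOVL6-d. Without it their changes with restriction were -2.42, -2.41 and -2.23.

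In liver, low RFI restricted replicate 5 was far below its group for FADS2 (2.88, against 8.31 to 9.31) and for ELOVL6 at ELOVL6-c (3.23, against 7.27 to 8.53) and ELOVL6-d (6.77, against 8.74 to 9.38). Without it the changes with restriction were -0.31 for FADS2, -1.24 for ELOVL6-c, which then passed (limma adjusted p = 0.0356), and -0.90 for ELOVL6-d.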

How the results depend on the processing

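Of 971 values under other settings 900 kept their direction and side of the threshold (counts within 1.5 times), as did 1963 of 2022 with 1 array left out. These include member counts for line and interaction that were 0 under every setting, which raise the share kept. The count of member probe sets passing for diet in liver moved under 7 of 11 alternatives. Low signal kept FADS1 and FADS2 out of the backfat tests. The cause of the changes below was not tested, except that fewer arrays enter a fit restricted to a set. Over both lines the main fits called 3999 probe sets for diet in backfat and 144 in liver. Of all 15498 probe sets in backfat, 469 passed for diet within arrays numbered 1 and 2 and 2908 within numbers 3 to 5. In liver 0 of 15677 passed within numbers 1 and 2, so no member could be counted, and 44 within numbers 3 to 5. With arrays numbered 1 and 2, the brightest ELOVL6 probe set no longer passed in backfat (-0.72) or liver (-0.96), and member probe sets passing were 1 in low RFI backfat, 1 in high RFI backfat and 0 in liver over both lines. Signs turned in liver there for FADS1 (diet 0.11, low RFI diet 0.83, interaction 1.42), FADS2 (0.29, 0.74 and 0.91), the ELOVL6 interaction (-0.15), the SCD line effect (-0.59), the SCD diet effect in high RFI pigs (0.07), and the ratios of SCD to FADS1 (-0.24) and to FADS2 (-0.42). With numbers 3 to 5, ELOVL6 in liver lost its call (-1.79), 0 member probe sets passed in high RFI backfat and 0 in liver, the SCD level difference of 0.72 missed the threshold, and signs turned for the ELOVL6 line effect in backfat (0.08), the FADS1 line effect in liver (-0.13) and the tissue difference at ELOVL6-c (0.18). Member probe sets passing for diet in liver were 2 with the offset, the set of arrays as a term or the control ratios as covariates, and 3 with all 40 arrays in 1 fit. Of all 15677 probe sets, 154 passed with the offset, 272 with that term, 384 with those covariates and 251 in the 1 fit. The FADS1 interaction turned to 0.03 with the control ratios. The SCD to FADS2 ratio turned under quantile normalization (-0.01) and the offset (-0.16), and ELOVL6 to SCD in backfat with the mean over probe sets (-0.23).

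The labels do not say that a replicate number marks a shared batch or litter. After removal of group means, same-numbered arrays correlated by 0.193 on average in backfat (0.0198 to 0.387) and 0.177 in liver (-0.00429 to 0.299), against -0.0483 and -0.0445 for other numbers, and 13 and 12 of 20 arrays correlated best with their own number, a hint of shared numbers from the data. Since not every pair exceeded 0.1, the main fits did not take the numbers to pair the samples. This rule cannot tell whether they do, since 1 low pair is enough to fail it. With the number as a block, 5011 probe sets passed for diet in backfat instead of 3999, and 328 in liver instead of 144, of which 2 member probe sets, with ELOVL6-b added (adjusted p = 0.0339). For the tissue difference, a block was the liver and backfat array of the same line, diet and number. The labels do not say that such arrays share a pig. So blocked, the tissue difference passed at ELOVL6-b (limma adjusted p = 0.0152) and ELOVL6-d (limma adjusted p = 0.0469). With the mean of each number subtracted within backfat, the ELOVL6 to SCD ratio changed by 0.77 (permutation of diet within line, adjusted p = 0.024). These permutations moved labels across numbers, so they are not an exact test of a blocked design. Whether the ratio passes with the number as a block was thus not settled.

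Leaving out 1 array gave -1.60 to -1.23 for ELOVL6 with diet in liver and 0 to 2 member probe sets passing. Ratios ran from 0.49 to 0.86 for ELOVL6 to SCD in backfat and -0.83 to -0.45 in liver, -0.08 to 0.42 for SCD to FADS1, -0.35 to 0.26 for SCD to FADS2 and -0.27 to 0.04 for FADS1 to FADS2. Line effects ran from -0.11 to 0.01 for ELOVL6 in backfat, and in liver from -0.14 to 0.31 for SCD and -0.77 to 0.03 for FADS2. Liver interactions ran from -0.79 to 0.10 for SCD, -0.79 to 0.53 for FADS1 and -1.32 to 0.29 for FADS2.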
